A study of Mus musculus with 4 samples.

Results

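The cells described are resting naive CD4 T cells of mouse lung, a population of 6457 cells among 14217 kept cells, of which 2435 of 7135 came from tumor-lung and 4022 of 7082 from normal-lung. A cell belonged when it had at least 1 unique molecular identifier (UMI, 1 counted RNA molecule) of Ccr7, none of Foxp3, and none of 11 genes of other CD4 T cell states, namely Sox4, Ccl5, Nkg7, Cxcr6, Pdcd1, Tnfrsf9, Tnfrsf4, Ctla4, Il2ra, Ifit1 and Ifit3. Cells were kept when at least 500 genes were detected, under 10% of UMIs were mitochondrial, and no more than 2 productive T cell receptor alpha chains and 1 beta chain were recorded. The series profiled CD4 T cells from lungs of C57BL/6 mice by droplet single-cell RNA sequencing from the 5′ end together with receptor sequencing. Tumor-lung cells came from mice that had received TC1 tumor cells by tail vein and were killed 3 weeks later, and normal-lung cells came from mice of matching age without tumor cells. In both groups lungs were perfused, digested with collagenase and DNase, passed through a Percoll gradient, enriched for CD4 T cells with magnetic beads and sorted as live CD4+ cells. Each tissue gave 1 expression library and 1 receptor library, and the number of mice behind each is not given in the sources used here. Tissue, mouse and library preparation therefore cannot be told apart. Every interval below is a 95% interval that covers counting error alone, UMIs of the same cell are not independent, and no test between tissues was possible.

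Naive CD4 T cells are mature T cells that have left the thymus and have not yet met their antigen. They circulate between blood and lymph nodes, entering nodes with the help of the chemokine receptor CCR7 and leaving through the sphingosine phosphate receptor S1PR1, whose gene is driven by the transcription factor KLF2. TCF7 and LEF1 keep their naive program, interleukin-7 keeps them alive, and weak contacts between the receptor and self peptides give them a low, continuous signal. In lung they are found in vessels and in lymphoid aggregates.

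The libraries held 7788 barcodes with 35633167 UMIs in tumor-lung and 7745 barcodes with 31697386 UMIs in normal-lung. The members held 10239515 UMIs in tumor-lung, with a median of 4129 UMIs and 1465 genes per cell, and 15515033 UMIs in normal-lung, with a median of 3899.5 UMIs and 1400 genes per cell. The median mitochondrial share was 2.44% of UMIs in tumor-lung members and 2.62% in normal-lung members, and ribosomal protein genes took 37.4% of UMIs in tumor-lung members and 37.7% in normal-lung members. The libraries shared 86 barcode sequences, which belonged to 37 tumor-lung members and 43 normal-lung members. Members with under 2500 UMIs made up 4.02% of tumor-lung members and 10.9% of normal-lung members. In normal-lung, 26.3% (20.7 to 32.5%) of such members with 1 alpha and 1 beta chain shared both chains with another kept barcode, against 0 of 44 in tumor-lung. The share of members and the counts of called genes are therefore given with and without barcodes that share a receptor, and shares of cells with a transcript or chain are given with them.

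Members were 34.1% (33.0 to 35.2%) of kept cells in tumor-lung and 56.8% (55.6 to 57.9%) in normal-lung. A deeper cell has more chances to show an excluded gene, so the rule was also applied after every cell had been reduced at random to 2417 UMIs, which left out 393 shallower cells in tumor-lung and 708 in normal-lung. The share was then 38.7% (37.5 to 39.9%) in tumor-lung and 62.5% (61.3 to 63.7%) in normal-lung. Without barcodes that share a receptor, a choice made after the data were seen, it was 35.7% in tumor-lung and 57.3% in normal-lung. In all of these settings the share was lower in tumor-lung. These are shares of sorted CD4 T cells, so they do not say whether naive cells were fewer in the lung or other CD4 T cells more numerous.

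The first step of the rule, a Ccr7 UMI without Foxp3, was met by 4849 kept cells in tumor-lung and 6194 in normal-lung. An excluded gene then removed 49.8% of them in tumor-lung and 35.1% in normal-lung. Ctla4, an inhibitory receptor raised on activation, was detected in 22.9% of these cells in tumor-lung and 12.9% in normal-lung. Ifit1, an interferon-induced gene, was detected in 13.9% in tumor-lung and 3.60% in normal-lung, and Ifit3, another, in 8.37% in tumor-lung and 1.28% in normal-lung. Tnfrsf4, which encodes the costimulatory receptor OX40, was found in 18.7% in tumor-lung and 16.0% in normal-lung. Sox4, a transcription factor gene high in recent thymic emigrants, was the exception, at 5.96% in tumor-lung and 8.62% in normal-lung. The members were chosen by the UMI counts of Ccr7, Foxp3 and these genes, so their values are given as a description. These shares were not read at equal depth. Kept cells had a median of 4173 UMIs in tumor-lung and 3906 in normal-lung, and the part of depth in small differences was not tested. Cells just outside the rule, with a single UMI of a single excluded gene, numbered 1061 (21.9%) in tumor-lung and 1261 (20.4%) in normal-lung. Just inside it, members with exactly 1 Ccr7 UMI were 16.8% of members in tumor-lung and 9.77% in normal-lung, and members with 3 or more were 67.0% in tumor-lung and 79.7% in normal-lung.

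**Figure D1:**
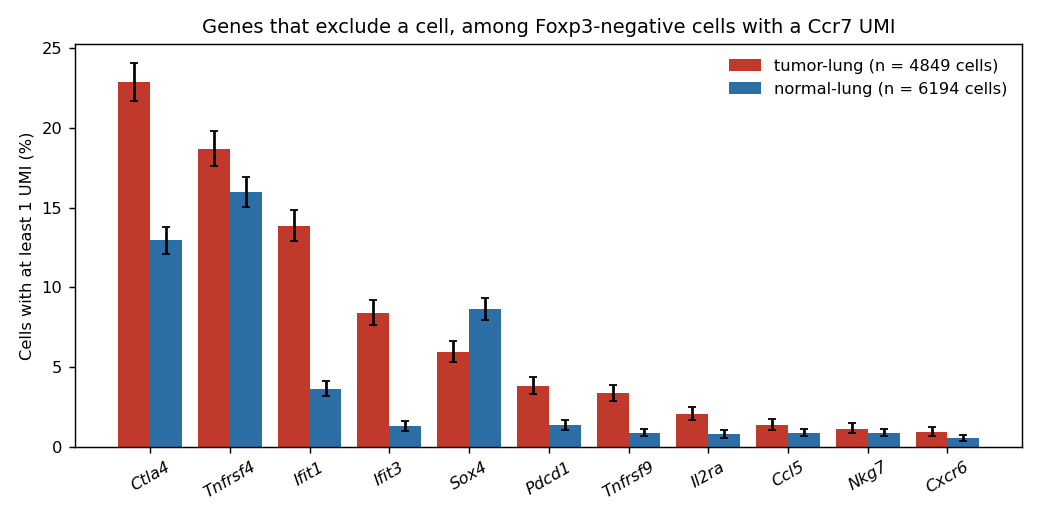
Share (%) of Foxp3-negative cells with a Ccr7 UMI that had at least 1 UMI of each excluded gene, in tumor-lung (4849 cells, red) and normal-lung (6194 cells, blue); error bars are exact binomial 95% intervals. Every excluded gene but Sox4 was detected in a larger share in tumor-lung, with Ctla4 at 22.9% in tumor-lung and 12.9% in normal-lung. Cells were not brought to equal depth.

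The label of naive CD4 T cells was checked on genes outside the rule. Lef1 was found in 91.9% of tumor-lung members and 93.3% of normal-lung members, and Tcf7 in 83.3% of tumor-lung members and 81.0% of normal-lung members. In CPM, the summed UMIs of a gene divided by all UMIs of the same cells and scaled to 1000000, members of tumor-lung had 785 CPM of Lef1 and 512 CPM of Tcf7, against 468 and 346 CPM in the other kept cells of that library. Members of normal-lung had 863 CPM of Lef1 and 509 CPM of Tcf7, against 718 and 455 CPM in the other kept cells of normal-lung. All 8 memory and effector genes read for this check were lower in members than in the other kept cells of the same library, but not all were near 0. Crip1, a LIM protein gene, was still found in 67.3% of tumor-lung and 68.5% of normal-lung members, Id2, a transcription regulator gene, in 23.9% of tumor-lung and 24.4% of normal-lung members, and Lgals1, the galectin-1 gene, in 15.9% of tumor-lung and 18.3% of normal-lung members. S100a4, which encodes a calcium-binding protein of effector and memory cells, had 5 UMIs in 2435 tumor-lung members, or 0.49 CPM, against 125 CPM in other tumor-lung cells. It had 16 UMIs in 4022 normal-lung members, or 1.03 CPM, against 69.6 CPM in other normal-lung cells. S1pr1 was the exception among naive genes, at 496 CPM in normal-lung members and 557 CPM in other normal-lung cells.

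Of the genes listed for other cell types, some were at 0 in members of both libraries and others were counted. At 0 were 3 of 9 B cell, 6 of 14 myeloid, 3 of 7 endothelial and stromal and 2 of 7 natural killer cell genes. So were 2 of 11 epithelial and 2 of 7 gamma-delta and innate genes. The gamma-delta and innate list summed to 22 UMIs in tumor-lung and 49 UMIs in normal-lung members. Cd3e was found in 97.3% of tumor-lung and 96.6% of normal-lung members, Cd4 in 55.6% of tumor-lung and 53.2% of normal-lung members, and Cd8a in 0.04% of tumor-lung and 0.02% of normal-lung members. The B cell genes Ms4a1 and Igkc, the myeloid genes Lyz2, S100a8, S100a9 and Tyrobp and all 7 erythroid and platelet genes had 0 UMIs in both libraries, which allows no more than 0.293 CPM in tumor-lung and 0.193 CPM in normal-lung for each gene (3 counts per library). The whole B cell list of 9 genes summed to 155 CPM in tumor-lung and 169 CPM in normal-lung members, nearly all of it Ighm, the immunoglobulin mu chain gene, found in 42.5% of tumor-lung and 43.2% of normal-lung members. The 14 myeloid genes summed to 69.4 CPM in tumor-lung and 67.5 CPM in normal-lung, mostly Cst3, a protease inhibitor gene found in 21.2% of tumor-lung and 20.3% of normal-lung members. Cd68, a lysosomal gene of that list, had 62 UMIs in tumor-lung and 44 UMIs in normal-lung members and a ratio of 2.14 (1.43 to 3.22). The 7 endothelial and stromal genes summed to 819 UMIs in tumor-lung and 1373 UMIs in normal-lung members, mostly Pecam1, an adhesion gene also carried by naive T cells, found in 28.1% of tumor-lung and 27.9% of normal-lung members. The 7 natural killer cell genes summed to 49.2 CPM in tumor-lung and 47.8 CPM in normal-lung, with the receptor gene Klrd1 in 8.38% of tumor-lung and 10.7% of normal-lung members. Cd8b1 was found in 4.80% of tumor-lung and 5.52% of normal-lung members. The part of other cell types in the results below was not tested. The 11 epithelial genes summed to 5.96 CPM in tumor-lung members and 5.67 CPM in normal-lung members. Within them Scgb1a1, the main secreted protein of airway club cells, had 2 UMIs in tumor-lung and 49 UMIs in normal-lung members. Its share of cells was 0.0821% in tumor-lung and 0.448% in normal-lung members. This is 1 gene and does not give the level of RNA from other cell types.

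Summed over members, expression in the lungs was close for most genes. Of 8587 genes with at least 100 UMIs over both libraries, 74.1% differed by less than 1.2-fold and the median log2 ratio of tumor-lung over normal-lung was 0.00. A gene was called when its CPM differed at least 1.5-fold. By this rule 255 genes (2.97%) were higher in tumor-lung members and 150 (1.75%) were lower, or 4.72% in either direction. At 2-fold, 56 genes were higher and 11 lower. Leaving out barcodes that share a receptor gave 265 higher and 150 lower genes.

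**Figure D2:**
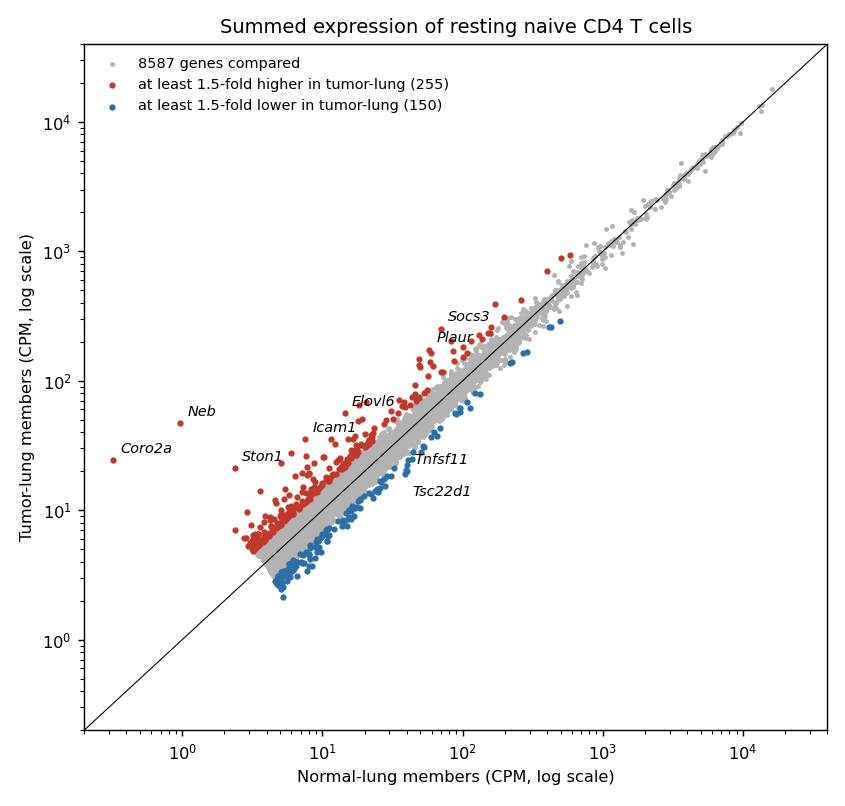
Summed expression (CPM, log axes) of 8587 genes in tumor-lung members (vertical) and normal-lung members (horizontal), with called genes in red (255 higher in tumor-lung) and blue (150 lower). Most genes lie on the diagonal, and Coro2a, Neb and Ston1 stand far above it.

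The largest ratios belonged to 3 genes that are not used as markers of T cells. Neb, which encodes nebulin, a giant protein of the thin filament of skeletal muscle (ENSMUSG00000026950, chr2:52136640-52338798 in GRCm38), had 479 UMIs or 46.8 CPM in tumor-lung members and 15 UMIs or 0.97 CPM in normal-lung members, a ratio of 48.4 (29.0 to 87.1). Coro2a, which encodes an actin-binding coronin (ENSMUSG00000028337, chr4:46536937-46601929), had 249 UMIs in tumor-lung and 5 UMIs in normal-lung members, a ratio of 75.5 (31.9 to 234). Ston1, which encodes a stonin, a relative of endocytic adaptors (ENSMUSG00000033855, chr17:88597615-88647865), had 216 UMIs in tumor-lung and 37 UMIs in normal-lung members, a ratio of 8.85 (6.22 to 12.9). The UMIs were spread over many cells, 367 tumor-lung members for Neb against 15 in normal-lung. At an equal depth of 2391 UMIs per cell, Neb was found in 10.1% (8.88 to 11.4%) of tumor-lung and 0.28% (0.13 to 0.51%) of normal-lung members, and Coro2a in 5.69% of tumor-lung and 0.06% of normal-lung members. Without this reduction the shares for Neb were 15.1% in tumor-lung and 0.37% in normal-lung. The counts are per gene and do not show which exons were covered.

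The nearest compared genes on each side of these on the chromosome were read as well, after their ratios had been seen. Ppp1r21, a regulatory subunit gene of protein phosphatase 1 that lies beside Ston1, had 705 UMIs in tumor-lung and 319 UMIs in normal-lung members, a ratio of 3.35 (2.93 to 3.83). Arl5a, a small GTPase gene beside Neb, had 196 UMIs in tumor-lung and 124 in normal-lung, a ratio of 2.40 (1.90 to 3.02). Trim14, an adaptor gene of antiviral signaling beside Coro2a, had a ratio of 1.56 (1.34 to 1.83). The compared genes on the other side did not reach 1.5-fold, at 0.94 for Rif1 beside Neb, 0.86 for Galnt12 beside Coro2a and 0.75 for Mettl4, the next compared gene past Ston1. Each of the 3 genes thus had 1 called and 1 uncalled nearest compared neighbour, at unequal distances. Ppp1r21 ends at 88588367, shortly before Ston1, while Mettl4 starts at 94722590, far past the Ston1 end at 88647865. Trim14 ends at 46536150, shortly before Coro2a, while Galnt12 starts at 47091894, well past the Coro2a end at 46601929. Beside Neb, the uncalled Rif1 ends at 52126769 and the called Arl5a starts at 52397949.

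Among the 15 genes with the largest ratios, Socs3 had the most UMIs. Socs3 encodes a feedback inhibitor of JAK kinases at the gp130 cytokine receptor (ENSMUSG00000053113, chr11:117966079-117970336). It had 2590 UMIs or 253 CPM in tumor-lung members and 1084 UMIs or 69.9 CPM in normal-lung members, a ratio of 3.62 (3.37 to 3.89). At equal depth, 39.8% (37.8 to 41.8%) of tumor-lung and 13.6% (12.5 to 14.8%) of normal-lung members had a Socs3 UMI, and the unreduced shares were 51.5% in tumor-lung and 19.4% in normal-lung. Plaur, the gene of the urokinase receptor, followed with 1781 UMIs in tumor-lung and 892 in normal-lung members, a ratio of 3.03 (2.79 to 3.28). Icam1, the adhesion ligand of the integrin LFA-1 (ENSMUSG00000037405, chr9:21015940-21028814), had 361 UMIs in tumor-lung and 117 UMIs in normal-lung members, a ratio of 4.68 (3.79 to 5.81). Its share of cells at equal depth was 7.52% in tumor-lung and 1.69% in normal-lung. The cell-cycle inhibitor gene Cdkn1a had a ratio of 4.66 (3.67 to 5.96), and Elovl6, an enzyme that lengthens fatty acids, one of 3.88 (3.32 to 4.54). The other genes of the 15 were Fkbp5, Sytl3, Sbno2, Bhlhe40, Akap12 and Gadd45g, with ratios between 3.06 for Gadd45g and 4.60 for Fkbp5.

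The lower genes differed by less. The 15 with the lowest ratios were between 1.93-fold and 2.43-fold lower in tumor-lung members, most of them at few UMIs. Polh, a DNA polymerase gene for damaged templates, had 22 UMIs in tumor-lung and 81 UMIs in normal-lung members, a ratio of 0.41 (0.24 to 0.67). Tnfsf11, which encodes the cytokine RANKL, had 205 UMIs in tumor-lung and 625 UMIs in normal-lung members, and was 2.01-fold lower (1.72 to 2.37). Tsc22d1, a transcription regulator gene first found as induced by TGF-beta, had 195 UMIs in tumor-lung and 603 UMIs in normal-lung members, and was 2.04-fold lower (1.73 to 2.41). Tnfsf11 and Tsc22d1 had the most UMIs of the 15. Mid1, Slc15a2, Actn2, Alg11, Fam111a, Swsap1, P2ry10b, Slc25a35, Galnt4 and the histone gene Hist1h4c were also among them, and reads of Hist1h4c may be split with near-identical histone copies.

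**Figure D3:**
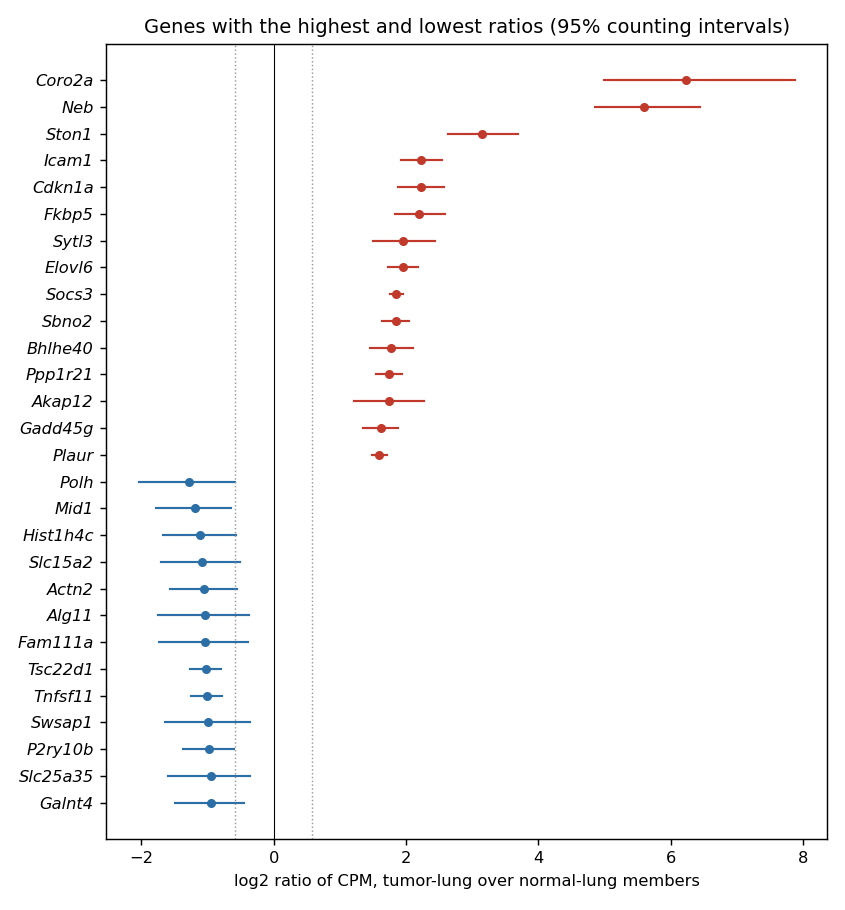
Ratio of summed CPM (log2), tumor-lung over normal-lung members, for the 15 highest genes and 13 of the 15 lowest, with 95% counting intervals and dotted lines at 1.5-fold. Coro2a, Neb and Ston1 lie above the rest, and the lower genes lie between 1.93-fold and 2.43-fold.

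The gene lists in this and the following paragraphs were chosen with earlier results of these data known. Their counts are therefore a description and give no independent support. Genes of the naive program were mostly alike in the lungs. Of 22 genes of naive state and homing, 1 was called higher and 1 lower, with a median log2 ratio of -0.14. Among all compared genes 2.97% were called higher and 1.75% lower. Lef1 had 785 CPM in tumor-lung and 863 CPM in normal-lung members, Tcf7 had 512 CPM in tumor-lung and 509 CPM in normal-lung members, and S1pr1 had 501 CPM in tumor-lung and 496 CPM in normal-lung members. Klf3, a repressor of the same family as KLF2, had 1697 UMIs or 166 CPM in tumor-lung members and 4443 UMIs or 286 CPM in normal-lung members, and was 1.73-fold lower in tumor-lung (1.63 to 1.83). Klf2 had 976 CPM in tumor-lung and 1361 CPM in normal-lung members, a log2 ratio of -0.48 that did not reach the 1.5-fold line. At equal depth Klf3 was found in 30.5% of tumor-lung and 46.1% of normal-lung members, and Klf2 in 81.4% of tumor-lung and 89.6% of normal-lung members. Treml2, a receptor gene of the TREM family, was the 1 gene called higher, with 577 UMIs in tumor-lung and 539 in normal-lung members, a ratio of 1.62 (1.44 to 1.83). Igfbp4, which encodes a secreted binding protein for insulin-like growth factors, had 1480 CPM in tumor-lung and 1052 CPM in normal-lung members and stayed under the line at a log2 ratio of 0.49. Il7r, the interleukin-7 receptor gene, had a log2 ratio of -0.25.

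Memory and effector genes gave 1 higher and 1 lower call among 18 compared, with a median log2 ratio of -0.18. The shares called over all compared genes were 2.97% higher and 1.75% lower. Ahnak, a scaffold gene high in memory cells, had 53 UMIs in tumor-lung and 137 UMIs in normal-lung members and was 1.71-fold lower in tumor-lung. The higher gene was Il2rb, the beta chain gene of the interleukin-2 and interleukin-15 receptors, with 221 UMIs in tumor-lung and 121 UMIs in normal-lung members, a ratio of 2.77 (2.21 to 3.48). Cd44 had 12.8 CPM in both. Of 9 compared cell-cycle genes none was called.

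Targets of T cell receptor signaling gave 4 higher and no lower calls among 18 compared genes, with a median log2 ratio of 0.39, where 2.97% of all compared genes were called higher and 1.75% lower. Nr4a1, a nuclear receptor gene switched on within hours of receptor contact, had 7278 UMIs or 711 CPM in tumor-lung members and 6199 UMIs or 400 CPM in normal-lung members, a ratio of 1.78 (1.72 to 1.84). Egr1, a zinc finger factor gene of the immediate early class, had 2071 UMIs in tumor-lung and 1281 UMIs in normal-lung members, a ratio of 2.45 (2.28 to 2.63). Irf4, a factor whose level grows with signal strength, had a ratio of 2.30 (1.95 to 2.72), and Nfkbid, an atypical inhibitor of NF-kB, one of 1.94 (1.77 to 2.12). At equal depth Nr4a1 was found in 68.7% of tumor-lung and 50.9% of normal-lung members. The activation marker Cd69 lay just under the line, at a log2 ratio of 0.58. The surface genes Cd5 and Cd28, also in this list, had log2 ratios of -0.31 and -0.49.

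Immediate early genes, which tissue digestion also raises, gave 4 higher calls and no lower call among 19 compared, with a median log2 ratio of 0.23, beside 2.97% called higher among all genes. Gadd45b, a stress response gene, had 1688 UMIs in tumor-lung and 920 UMIs in normal-lung members, a ratio of 2.78 (2.56 to 3.02). Zfp36, whose protein speeds decay of cytokine messages, had 9117 UMIs in tumor-lung and 7860 UMIs in normal-lung members, a ratio of 1.76 (1.71 to 1.81). Klf4 and Fosb were the other called genes, at log2 ratios of 0.70 and 0.62. None of 9 compared heat shock genes was called, and their median log2 ratio was 0.08. The part of dissociation in the immediate early and receptor signaling genes was not tested.

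The STAT3-linked list, too, was chosen with earlier results of these data known. It gave 4 higher and no lower calls among 15 compared genes, with a median log2 ratio of 0.27. Among all compared genes 2.97% were called higher. Beside Socs3, the genes called higher included Batf, an AP-1 family factor, with a ratio of 1.98 (1.84 to 2.13). Bcl3, an atypical IkB protein, had a ratio of 1.78 (1.59 to 1.99), and Stat3 itself one of 1.72 (1.62 to 1.83). A ratio below 1 was found for 4 other genes of the list. Stat3 had 2303 UMIs or 225 CPM in tumor-lung members and 2024 UMIs or 130.5 CPM in normal-lung members. The receptor genes Il6ra and Il6st had log2 ratios of -0.16 and -0.40. Per cell at equal depth, the STAT3-linked genes summed to a median of 19 UMIs in tumor-lung and 14 in normal-lung members, with 10th and 90th percentiles of 10 and 30 in tumor-lung and 7 and 24 in normal-lung. The distributions overlapped over most of their range. This sum is of UMIs, so abundant genes weigh most. Without the reduction in depth the list held 82788 UMIs in tumor-lung and 97099 in normal-lung members. Of these Socs3 gave 2590 in tumor-lung and 1084 in normal-lung, Batf 1731 and 1326, and Stat3 2303 and 2024. Most of the sum therefore came from other genes of the list.

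Genes around interleukin-7, interleukin-2 and STAT5 gave 5 higher and no lower calls among 12 compared, with a median log2 ratio of 0.32, beside 2.97% called higher among all genes. Besides Il2rb they were Cish, a STAT5-induced feedback inhibitor, at a ratio of 2.41 (1.91 to 3.06), the survival kinase gene Pim2 at 1.61, Bcl2 at 1.58 and Jak3 at 1.53. Bcl2, the main survival protein of naive cells, had 3181 UMIs in tumor-lung and 3054 UMIs in normal-lung members. Bbc3, which encodes the death-promoting protein PUMA, was also higher, with 600 UMIs in tumor-lung and 480 UMIs in normal-lung members and a ratio of 1.89 (1.68 to 2.14). These were the 2 called genes among 10 of the Bcl2 family, beside 2.97% called higher among all genes.

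Interferon-induced genes were read with the condition that members lacked Ifit1 and Ifit3, which are themselves interferon-induced. Within that limit 15 of 42 compared genes were higher in tumor-lung members and none lower, with a median log2 ratio of 0.43, beside 2.97% higher and 1.75% lower among all genes. Irf7, the interferon regulatory factor that amplifies the response, had 1468 UMIs in tumor-lung and 1340 UMIs in normal-lung members, a ratio of 1.66 (1.54 to 1.79). Rtp4, a chaperone gene of receptors, had 501 UMIs in tumor-lung and 279 UMIs in normal-lung members, a ratio of 2.72 (2.35 to 3.16). Isg15, which encodes a ubiquitin-like protein, was not called, at a log2 ratio of 0.32. When cells with Ifit1 or Ifit3 were let in, the median became 0.82. The list of interferon-induced GTPases and their regulators gave 3 higher and no lower calls among 13 genes. The called GTPases were Irgm1, at 2.16 (1.84 to 2.54), and Tgtp1, at a log2 ratio of 0.69, and the third gene was Socs1, a feedback inhibitor of interferon receptors and no GTPase, at 2.71 (2.48 to 2.96). None of 18 class I antigen presentation genes was called, and their median log2 ratio was -0.00.

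Glucocorticoid-induced genes gave 4 higher and no lower calls among 11 compared, with a median log2 ratio of 0.50, beside 2.97% called higher among all genes. Fkbp5, a cochaperone that restrains the glucocorticoid receptor, had 237 UMIs in tumor-lung and 78 UMIs in normal-lung members, a ratio of 4.60 (3.55 to 6.03). Ddit4, an inhibitor of mTOR, had a ratio of 1.88 (1.55 to 2.28), the chemokine receptor gene Cxcr4 one of 1.88 (1.55 to 2.28) and the clock gene Per1 a log2 ratio of 0.59, only just past the line. Tsc22d3, which encodes the glucocorticoid-induced leucine zipper, was not called, with a log2 ratio of 0.03.

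The NF-kB list gave 1 higher call, Icam1, and 1 lower call, Nfkb2, among 12 compared, beside 2.97% higher and 1.75% lower among all genes. Nfkb2, the subunit gene of the alternative pathway, had 413 UMIs in tumor-lung and 970 UMIs in normal-lung members and was 1.55-fold lower in tumor-lung (1.38 to 1.74). Of 14 trafficking genes 2 were higher and none lower, beside the same shares among all genes. Rgs1, a brake on chemokine receptor signaling, had 1307 UMIs in tumor-lung and 770 UMIs in normal-lung members, a ratio of 2.57 (2.35 to 2.82), and Cxcr4 was the other.

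The GIMAP genes, a cluster of GTPases that support lymphocyte survival, gave 1 lower call among 8, beside 1.75% called lower among all genes. Gimap7 had 383 UMIs in tumor-lung and 1015 UMIs in normal-lung members and was 1.75-fold lower in tumor-lung (1.55 to 1.97). In all, 7 of the 8 had a log2 ratio below 0, and Gimap5, at 0.47, was the exception. At equal depth, the GIMAP genes summed to a median of 6 UMIs per cell in tumor-lung and 8 in normal-lung members. Among 6 compared genes linked to recent thymic emigrants, St8sia6, a sialyltransferase gene, had 583 UMIs in tumor-lung and 1475 UMIs in normal-lung members and was 1.67-fold lower in tumor-lung (1.52 to 1.84). No gene was called among 18 of glycolysis and hypoxia, 10 of TGF-beta signaling, 13 encoded in mitochondria, 15 of the receptor complex and 83 of ribosomal proteins.

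**Figure D4:**
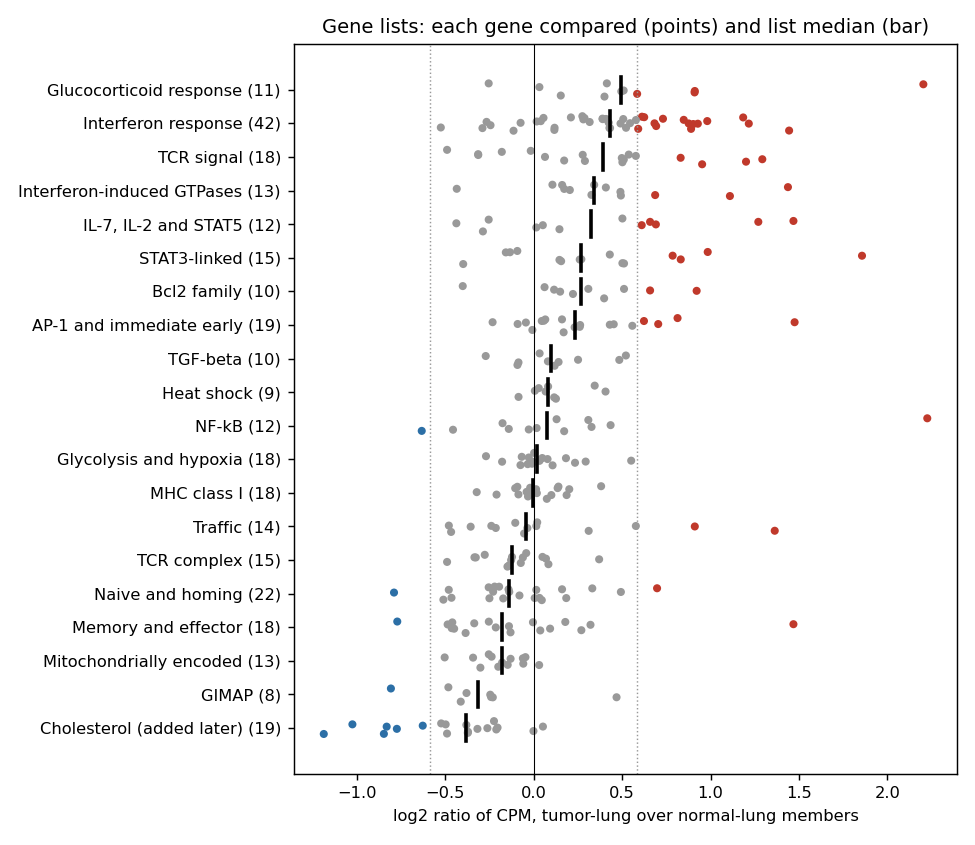
Log2 ratio of CPM, tumor-lung over normal-lung members, for each compared gene (points) of 20 gene lists, with the list median (bar), called genes in colour and dotted lines at 1.5-fold. The glucocorticoid, interferon and receptor signaling lists have the highest medians (0.50, 0.43 and 0.39), and the GIMAP and cholesterol lists the lowest (-0.31 and -0.38).

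Promoter sequences were read for the STAT core letters TTCNNNGAA, which are their own reverse complement, because Socs3 and Icam1 are among the genes with the largest ratios. The windows shown are the 250 bases before the start annotated by RefSeq (GRCm38.p6), 5′ to 3′ on the gene's strand. Matching letters are in capitals. The gene and promoter tables of RefSeq place the Socs3 start differently, so that the Socs3 window lies within the gene span given above and distances hold for the promoter table's start. The Socs3 window is chr11:117969367-117969616 on the minus strand and the Icam1 window chr9:21015690-21015939 on the plus strand.
Socs3: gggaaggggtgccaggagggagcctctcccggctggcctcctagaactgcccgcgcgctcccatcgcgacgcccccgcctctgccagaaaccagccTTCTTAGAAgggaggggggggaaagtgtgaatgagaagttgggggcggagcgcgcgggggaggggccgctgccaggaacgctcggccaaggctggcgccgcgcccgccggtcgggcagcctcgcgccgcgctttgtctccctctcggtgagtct
Icam1: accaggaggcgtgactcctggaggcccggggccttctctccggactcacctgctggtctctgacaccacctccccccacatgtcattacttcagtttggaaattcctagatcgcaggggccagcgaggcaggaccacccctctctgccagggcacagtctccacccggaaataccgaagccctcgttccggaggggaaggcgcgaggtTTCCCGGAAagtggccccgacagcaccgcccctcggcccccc
The Socs3 match lies 154 bases and the Icam1 match 42 bases before the start in the promoter table. The shares that follow were read over whole promoter entries, which were not cut to the 250 bases before the start. The letters were present in 10.2% of 266 entries of the higher genes, of which 189 of 255 were matched in the table. They were present in 9.22% of 141 entries of the lower genes and in 6.64% of 8605 entries of all compared genes. In the whole table they were present in 8.30% of 32851 entries. A match describes letters, not binding.

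The same contrast was read in Foxp3-negative cells outside the members. Most of these also had a Ccr7 UMI and were left out only for a UMI of an excluded gene. Such cells were 2414 of 3553 in tumor-lung and 2172 of 2854 in normal-lung, so this is not a contrast with non-naive cells. Socs3 had 3825 UMIs in tumor-lung and 922 UMIs in normal-lung in all other Foxp3-negative cells, a ratio of 3.12 (2.90 to 3.36), beside 3.62 in members. In cells that met the rule but for a Sox4 UMI, 147 in tumor-lung and 324 in normal-lung, the Socs3 ratio was 3.61 (2.67 to 4.92). Neb had 697 UMIs in tumor-lung and 24 UMIs in normal-lung in the other Foxp3-negative cells, a ratio of 21.8 (14.6 to 34.3). Klf2 was lower there too, with a ratio of 0.62 (0.61 to 0.64) beside 0.72 (0.70 to 0.73) in members. The direction of these 3 genes was therefore shared by cells inside and outside the rule. Tnfsf11 had a ratio of 0.97 (0.89 to 1.06) in the other Foxp3-negative cells, beside 0.50 (0.42 to 0.58) in members. It was lower also in the naive-like cells set apart by the rule, with a ratio of 0.60 (0.39 to 0.91) in those with a Sox4 UMI and 0.37 (0.22 to 0.62) in those with an Ifit1 or Ifit3 UMI. With 1 library per tissue, whether any ratio differs between members and other cells was not tested.

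T cell receptors of members were diverse. Both chains were recovered in 81.0% (79.4 to 82.5%) of tumor-lung and 76.9% (75.6 to 78.2%) of normal-lung members. A receptor counted as shared when V segment, CDR3 nucleotides and J segment were the same in both chains. Of 1738 tumor-lung members with 1 alpha and 1 beta chain, 0 (0 to 0.212%) shared their receptor with another member. In normal-lung 54 of 2796 such members (1.93%, 1.45 to 2.51%) fell into 26 clones, 24 of 2 cells and 2 of 3 cells. Among other kept cells with 1 alpha and 1 beta chain, 315 of 3260 (9.66%) in tumor-lung and 97 of 2093 (4.63%) in normal-lung were in clones. The largest clone of these other cells held 8 cells in tumor-lung and 28 in normal-lung. No clone of members was found in both libraries. A second alpha chain was recorded in 11.9% (10.5 to 13.4%) of tumor-lung and 9.73% (8.73 to 10.8%) of normal-lung members with an alpha chain.

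The normal-lung members that shared a receptor were shallow. Their median was 1832 UMIs, with a range of 1073 to 4286, against 3971.5 UMIs for members whose receptor was seen once, and 46 of 54 lay below 2500 UMIs. Cells outside the members that shared a receptor had medians of 4845 UMIs in tumor-lung and 3744.5 UMIs in normal-lung. The clones of 3 barcodes are shown by the nucleotides of their CDR3 regions, the stretch that meets the peptide, as deposited for normal-lung.
Clone 1 alpha (TRAV6-5 with TRAJ27, chromosome 14): tgtgcttatcatacaggcaaattaaccttt
Clone 1 beta (TRBV15 with TRBJ2-2, chromosome 6): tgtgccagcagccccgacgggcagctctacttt
Clone 2 alpha (TRAV6-7-DV9 with TRAJ39, chromosome 14): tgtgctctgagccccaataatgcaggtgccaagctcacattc
Clone 2 beta (TRBV5 with TRBJ1-1, chromosome 6): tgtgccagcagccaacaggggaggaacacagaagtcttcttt
The 3 barcodes of clone 1 held 1874, 1896 and 1783 UMIs, and those of clone 2 held 1791, 1206 and 1262 UMIs, all under the library's median. Whether several barcodes came from the same cell was not tested.

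**Figure D5:**
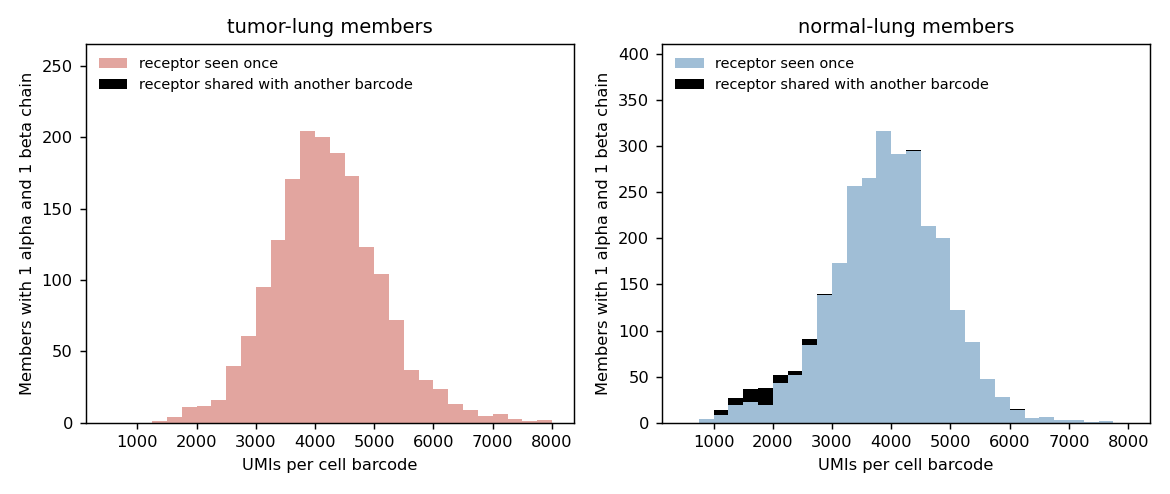
Number of members with 1 alpha and 1 beta chain by UMIs per barcode (steps of 250 UMIs), in tumor-lung (left) and normal-lung (right), with barcodes that share their receptor with another kept barcode of the library in black. Black appears in normal-lung alone, mainly below 2500 UMIs, where 60 of 228 such members shared a receptor, against 10 of 2568 above.

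The most used receptor segments had close shares in the lungs. TRBV3 was found in 9.96% of tumor-lung and 9.78% of normal-lung beta chains, TRBV31 in 9.56% of tumor-lung and 10.0% of normal-lung, and TRBJ2-7 in 17.1% of tumor-lung and 17.2% of normal-lung. TRAJ31, the most used joining segment of alpha chains, was found in 6.93% of tumor-lung and 7.15% of normal-lung alpha chains. The counting interval of the ratio left out 1 for 3 of 22 TRBV, 2 of 80 TRAV, 0 of 43 TRAJ and 0 of 12 TRBJ segments. The TRBV segment with the most chains among those 3 was TRBV5, at 6.77% in tumor-lung and 8.34% in normal-lung, a ratio of 0.81 (0.66 to 0.99). TRBV29 was at 2.02% in tumor-lung and 1.23% in normal-lung, a ratio of 1.65 (1.06 to 2.55). TRAV14-1, with 19 chains in tumor-lung and 51 in normal-lung, had a ratio of 0.57 (0.32 to 0.98). TRAV9-4, with 30 chains in tumor-lung and 72 in normal-lung, had a ratio of 0.64 (0.40 to 0.99). The intervals are not adjusted for the number of segments read. The TRAV11 with TRAJ18 chain of natural killer T cells was seen in 1 tumor-lung and 2 normal-lung members.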

How the data were processed

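Reads were processed by the submitters with Cell Ranger 3.1.0 against mm10, per the submitters' processing notes. The deposited matrices hold raw UMI counts for 31053 genes per barcode, and the deposited contig tables hold assembled receptor chains with UMI counts. Libraries were targeted at 10000 cells. Cells were filtered as stated above and no doublet caller was run beyond the limit on receptor chains. Counts were summed over members of each library, divided by the members' total UMIs and compared as a ratio with an exact conditional binomial interval. Shares have exact Clopper-Pearson intervals, all at 95% and covering counting error only. With 1 library per tissue there was no replicate and no test. Genes needed at least 100 UMIs over both libraries and were called at 1.5-fold. Named genes were the 15 with the highest and the 15 with the lowest ratios among called genes found in at least 20 cells of the library where they were higher, besides members of 31 gene lists. The rule for members, the lists and the named genes was chosen with earlier results of these data known, and the cholesterol list, the neighbouring genes and the promoters read were chosen after the ratios were seen. Of the gene IDs, 30934 matched the gene table used. For shares of cells, each cell was thinned without replacement (seed 1) to 2391 UMIs, with 81 tumor-lung and 402 normal-lung members left out as shallower. The calculation was tested on simulated counts. Some genes are not reported here. Alternatives covered scaling, cell weighting, depth, filters and the rule itself. Python 3.11.15, numpy 2.4.6, scipy 1.17.1, pandas 2.3.3 and matplotlib 3.10.9 were used.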

Additional observations from a re-analysis of the deposited data

How the results depend on the processing

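Alternatives were run on 45 named genes and 22 gene lists, not on every called gene. None of the called genes among the 45 changed direction, and of the list medians only the 2 named below did. Of 675 gene values under the alternatives 666 moved by less than their counting interval and 9 by more, and of 330 list medians 328 and 2. Called genes in tumor-lung members numbered 482 higher and 319 lower with at least 30 UMIs over both libraries, 2968 higher and 1548 lower with no filter on low counts, and 56 higher and 11 lower at 2-fold. Without the condition on Ifit1 and Ifit3, the medians were 0.82 for interferon-induced genes and 0.75 for the GTPase list, since cells with those transcripts then count. The share of members was 28.4% in tumor-lung and 51.2% in normal-lung with at least 2 Ccr7 UMIs, and 29.6% in tumor-lung and 45.6% in normal-lung with Lef1 and Tcf7 in place of Ccr7. It was 40.4% in tumor-lung and 58.8% in normal-lung without the condition on Ifit1 and Ifit3, 36.2% in tumor-lung and 61.4% in normal-lung without that on Sox4, and 38.7% in tumor-lung and 62.5% in normal-lung after thinning. Without barcodes that share a receptor, tried after the data were seen, the tumor-lung share was 35.7%. The median of the class I antigen presentation list, near 0, took the other sign in 4 of 15 settings and that of glycolysis in 1. No paired analysis was possible because each tissue has 1 expression library and the labels give no replicate numbers. Leaving out a replicate was impossible for the same reason. Depth limits genes with few UMIs, whose intervals are wide, as that of Coro2a at 31.9 to 234.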

Other observations

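Genes of cholesterol synthesis and uptake were listed after the ratios had been seen. Of 19 compared, 6 were at least 1.5-fold lower in tumor-lung members and none higher, with a median log2 ratio of -0.38, against 1.75% called lower among all compared genes. Idi1, which makes an isoprenoid precursor, had 87 UMIs in tumor-lung and 237 UMIs in normal-lung members and was 1.80-fold lower (1.40 to 2.33). Stard4, a carrier of cholesterol, had 109 UMIs in tumor-lung and 255 UMIs in normal-lung members and was 1.54-fold lower (1.23 to 1.95). Sqle and Fdps, both enzymes of the pathway, had log2 ratios of -0.83 and -0.77. Each of these genes was found in fewer than 6% of members in either library, so the counts are small, and the list gives no support independent of the ratios that led to it.

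Hspa1a, an inducible heat shock gene below the UMI minimum, had 59 UMIs in 16 tumor-lung members and 18 UMIs in 18 normal-lung members. Ly6a, the gene of the surface protein Sca-1, was above the minimum, with 1867 UMIs in tumor-lung and 1571 UMIs in normal-lung members and a ratio of 1.80 (1.68 to 1.93), and was called higher. Prf1, the perforin gene on the list of natural killer cell genes, had 237 UMIs in tumor-lung and 221 UMIs in normal-lung members, a ratio of 1.62 (1.35 to 1.96), while Ncr1 and Klre1 of that list had 0 UMIs in both.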
